A study of Mus musculus with 4 samples.

Results

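The synaptotagmin genes described here are *Syt1*, *Syt2*, *Syt3*, *Syt4*, *Syt5*, *Syt7*, *Syt9*, *Syt11*, *Syt13* and *Syt14*. They were taken by symbol from the gene count table of mouse embryonic pancreas, where all 10 were found among 24391 genes. Of these, 9 passed the filter on low counts together with 14550 genes in all, and *Syt2* did not. RNA-seq had been performed on whole pancreas at E18.5, with 2 libraries from controls labelled Pdx1Cre RESTwt and 2 from RestpKO embryos labelled Pdx1Cre RESTLoxP/LoxP, all on a mixed strain with C57BL/6. Both genotypes therefore carried *Pdx1-Cre*, and only RestpKO embryos carried the conditional *Rest* allele on both chromosomes. *Pdx1-Cre* acts in the pancreatic epithelium, so nerves, vessels, blood cells and mesenchyme of the same tissue kept *Rest*. The comparison asks which transcripts of the embryonic pancreas differ once REST is lost from its epithelium.

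Synaptotagmins are membrane proteins of secretory vesicles and related organelles, with paired C2 domains that face the cytosol. In several members these domains bind calcium and couple its entry to membrane fusion by SNARE proteins, in neurons as in hormone-secreting islet cells, whereas other members do not bind calcium. REST is a zinc-finger repressor that keeps many neuronal and endocrine genes silent elsewhere by binding a long DNA element called RE1.

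The 4 libraries held between 16936759 and 24134100 counts. Levels are given in CPM, the count of a gene relative to the TMM-adjusted size of its library. *Rest* had 14.2 and 15.7 CPM in controls 1 and 2, and 12.1 and 9.16 CPM in RestpKO 1 and 2. Both RestpKO libraries lay below both controls, but the log2 fold change of -0.49 (SE 0.23) did not pass the test (edgeR adjusted p = 0.593, DESeq2 adjusted p = 0.877). This count covers the whole gene, whereas the allele used by the authors removes exon 4, and the tissue held cells that kept *Rest*. It is therefore no direct measure of the deletion, for which the authors reported a severe loss of REST protein. The counts of *Xist* and of Y-linked genes marked control 1 and RestpKO 2 as female and control 2 and RestpKO 1 as male, so that the libraries of one genotype came from different embryos. The labels do not say whether the libraries were prepared in different batches. Replicates differed by more than sampling noise, with a chi-square per degree of freedom of 23.2 in controls and 64.9 in RestpKO. Markers of islet, acinar, duct and mesenchymal cells were detected in every library.

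RE1-like sequences were sought in the mm9 genome (NCBI build 37), to show where the letters of the REST element lie relative to these genes. The 2 half-sites searched were TTCAGCACC and GGACAG, separated by 2 unspecified bases, on both strands and with at most 2 mismatches over the 15 specified positions. Stretches of 37 bases are shown for the members that had a match with at most 1 mismatch or a match within 5000 bases of the gene start, apart from *Syt4*. They are written 5′ to 3′ on the strand of the match, with capitals for the half-site bases that matched.
Syt7, intron, exact, chr19:10477761-10477797, plus strand: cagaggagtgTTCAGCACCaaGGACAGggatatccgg
Syt9, intron, 1 mismatch, chr7:114536465-114536501, minus strand: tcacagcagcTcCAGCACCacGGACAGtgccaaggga
Syt14, upstream, 2 mismatches, chr1:194862340-194862376, plus strand: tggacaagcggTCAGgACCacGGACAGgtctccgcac
Syt3, upstream, 2 mismatches, chr7:51634841-51634877, minus strand: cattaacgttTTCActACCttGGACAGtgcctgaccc

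The *Syt7* match lay 14199 bases downstream of the gene start, and another with 2 mismatches followed in the same intron 14237 bases from the start. In *Syt9* the match with 1 mismatch lay 22241 bases into the gene. The *Syt14* and *Syt3* matches lay upstream, at -447 and -4613 bases relative to the gene start. *Syt4* held an exact match in a coding exon, 225 bases after its start, whose letters are not shown. *Syt1* held 2 intronic matches with 2 mismatches each, far from its start. *Syt2*, *Syt5*, *Syt11* and *Syt13* held none in the gene or in 5000 bases on either side.

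Thus 3 of the 10 members had a match within 5000 bases of the gene start, as did 4.54% of the 13312 tested genes placed on the annotation. In the gene with its flanks, 6 of 10 members had a match, beside 18.9% of those genes, and longer genes offer more bases to match (*Syt1* spans 513333 bases and *Syt5* 6800). Exact matches were rarer. They were present in 0.188% of genes near the start and in 0.541% of genes with their flanks, and among the members in *Syt4* and *Syt7*. A match describes letters in the genome, and data on REST binding were not analysed here. The authors reported regions bound by REST at *Syt7*, and at the SNARE gene *Snap25*, in embryonic pancreas of an earlier stage. Whether the *Syt7* matches lie in such a region was not examined.

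Among the members, *Syt13* was by far the most abundant. On the scale of CPM per kilobase of annotated exon, *Syt13* reached 9.75 ± 1.16 in controls (SD, n = 2) and 18.3 ± 0.850 in RestpKO. In controls it was followed by *Syt14*, *Syt7*, *Syt11* and *Syt5* with mean levels of 2.79, 2.23, 1.46 and 0.855 CPM per kilobase. *Syt9*, *Syt3*, *Syt4*, *Syt1* and *Syt2* had mean control levels from 0.544 down to 0.0583 CPM per kilobase. Neighbours in this order had separate ranges in the control libraries except *Syt9* and *Syt3*, and *Syt1* and *Syt2*. In RestpKO the order was nearly the same, except that *Syt7* stood above *Syt14* and *Syt3* above *Syt9*, and the ranges of both of these pairs overlapped there. The order between genes is approximate, because exon lengths came from GENCODE and the counts from UCSC genes. In CPM the control means of *Syt7*, *Syt11* and *Syt14* were 15.5, 7.65 and 5.37. The second place of *Syt14* in controls thus rests on its annotated exon length of 1923 bases.

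**Figure D1:**
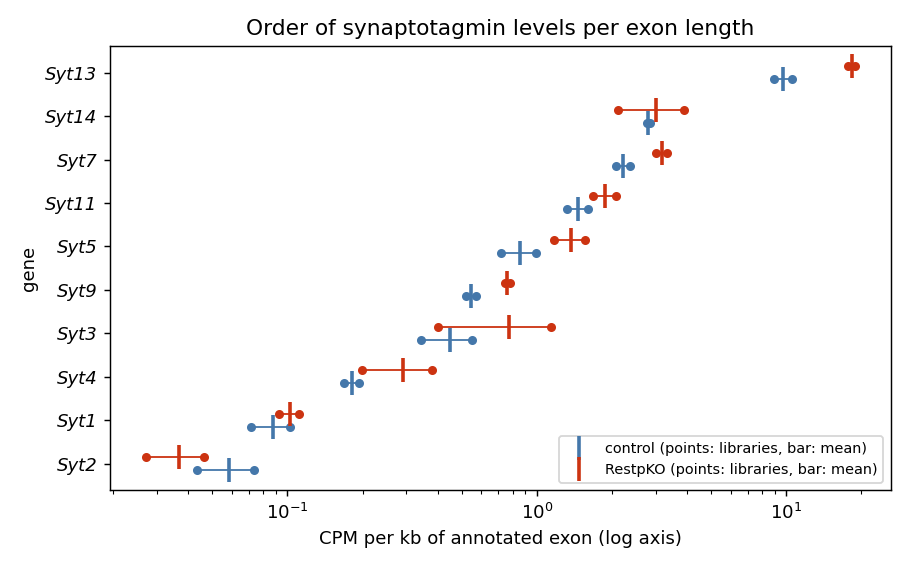
Level of each synaptotagmin gene in CPM per kilobase of exon on a log axis, with controls in blue and RestpKO in red, 1 point per library, a line joining the 2 libraries of a genotype and a vertical bar at their mean. *Syt13* lies above all other members in both genotypes, and *Syt1* and *Syt2* lie lowest.

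*Syt13* alone made up 51.9% and 49.7% of the members' summed CPM in controls 1 and 2, and 58.0% and 60.1% in RestpKO 1 and 2. The summed level of all 10 members was 76.6 and 67.6 CPM in the controls and 115 and 118 CPM in RestpKO. Without *Syt13* the sums were 36.8 and 34.0 CPM in the controls and 48.2 and 47.2 CPM in RestpKO. Both sums were higher in each RestpKO library than in either control. In whole tissue, a larger number of cells of one type and more RNA per cell cannot be told apart.

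*Syt13* encodes an atypical synaptotagmin that does not bind calcium and is known from endocrine cells of the pancreas. It lies at chr2:92755255-92796215 on the plus strand (mm9). Controls 1 and 2 had 39.8 and 33.6 CPM, and RestpKO 1 and 2 had 66.5 and 71.1 CPM. Both RestpKO libraries thus lay well above both controls, and the gap between genotypes exceeded that between replicates. The fold change was 1.88 (log2 0.91, SE 0.18, 95% interval 0.49 to 1.33). With edgeR the adjusted p was 0.357 (unadjusted p = 0.00121), so that *Syt13* was not called. With DESeq2 it rose at an adjusted p of 0.0223, and with embryo sex as a further term in edgeR at an adjusted p of 0.0445. The sex term did not sharpen the estimate, since the SE of *Syt13* was 0.27 in that fit and 0.18 in the main fit. Over all 12 alternative settings its log2 fold change lay between 0.79 and 1.03 and its adjusted p between 0.0223 and 0.823, and it was called in 3 of them, the last being edgeR without RestpKO replicate 1 (adjusted p = 0.0416). Without control replicate 2 the edgeR adjusted p was 0.823.

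The second highest count among the members belonged to *Syt7*, a high-affinity calcium sensor of regulated secretion with a known role in insulin and glucagon release. This gene lies at chr19:10463580-10527671 on the plus strand. Its CPM were 16.5 and 14.5 in controls and 23.1 and 21.0 in RestpKO, with no overlap between genotypes. The log2 fold change was 0.51 (SE 0.19, 95% interval 0.07 to 0.95), and the unadjusted p of 0.0289 became 0.504 after adjustment (edgeR). DESeq2 gave an adjusted p of 0.764. A long noncoding RNA on the opposite strand, without a row of its own in the table, shares 384 exon bases with *Syt7*. The strand setting of the counting was not stated.

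*Syt9*, a fast calcium sensor related to *Syt1* and *Syt2*, is located at chr7:114514242-114692170 on the plus strand. The 2 controls had 2.26 and 2.07 CPM, and the 2 RestpKO libraries 2.97 and 3.10 CPM. These pairs were tight and did not overlap. The log2 fold change was 0.49 (SE 0.33, 95% interval -0.28 to 1.26), which did not pass the test (edgeR adjusted p = 0.673).

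*Syt5* encodes a calcium sensor found on dense-core vesicles and lies at chr7:4491370-4498169 on the minus strand. Its levels were 1.73 and 1.26 CPM in controls and 2.04 and 2.73 CPM in RestpKO. Again both RestpKO libraries were above both controls, although RestpKO 1 was nearer to control 1 than to RestpKO 2. The log2 fold change of 0.68 (SE 0.40, 95% interval -0.25 to 1.61) did not pass (edgeR adjusted p = 0.644).

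*Syt3*, another high-affinity calcium sensor, lies at chr7:51639472-51655557 on the plus strand. Control libraries had 1.07 and 1.71 CPM, and RestpKO libraries 1.25 and 3.55 CPM. RestpKO 2 stood alone at the top, and RestpKO 1 fell between the controls, so that the genotypes overlapped. The log2 fold change was 0.78 (SE 0.56, 95% interval -0.53 to 2.09, edgeR adjusted p = 0.687), and it became -0.16 without RestpKO replicate 2.

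The classical fast sensors of neurotransmitter release, *Syt1* and *Syt2*, were barely detected. *Syt1* (chr10:107934706-108448038, minus strand) had 10 and 17 counts in controls and 20 and 17 in RestpKO, or 0.595, 0.857, 0.927 and 0.774 CPM. Its libraries overlapped between genotypes, with a log2 fold change of 0.22 (SE 0.49, 95% interval -0.93 to 1.37, edgeR adjusted p = 0.889), which was -0.015 without control replicate 1. *Syt2* (chr1:136605877-136649726, plus strand) had 5 and 10 counts in controls and 4 and 7 in RestpKO, or 0.298, 0.504, 0.185 and 0.319 CPM. It was the one member with a lower mean in RestpKO, yet its libraries overlapped and a difference was not detectable at this depth.

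Of the remaining atypical members, *Syt11* encodes a protein that does not bind calcium in the manner of the fast sensors. It is located at chr3:88548622-88636219 on the minus strand. Its levels in controls 1 and 2 were 8.39 and 6.91 CPM, against 8.81 and 10.9 CPM in RestpKO 1 and 2. The genotypes did not overlap, but control 1 and RestpKO 1 were close together. Its log2 fold change of 0.37 (SE 0.25, 95% interval -0.21 to 0.95) did not pass (edgeR adjusted p = 0.673).

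*Syt14* encodes a calcium-independent member and lies at chr1:194723404-194861911 on the minus strand. The controls had 5.30 and 5.45 CPM, and RestpKO 1 and 2 had 7.47 and 4.05 CPM. The RestpKO libraries thus fell on opposite sides of the controls. The log2 fold change was 0.10 (SE 0.34, 95% interval -0.70 to 0.90, edgeR adjusted p = 0.928), and it was -0.40 without RestpKO replicate 1.

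*Syt4*, the closest relative of *Syt11* and a gene induced by activity in neurons, was among the low members. It had 11 and 15 counts in controls and 32 and 17 in RestpKO, or 0.655, 0.757, 1.48 and 0.774 CPM. RestpKO 1 was the highest library, and RestpKO 2 exceeded control 2 by only a small margin. The log2 fold change was 0.67 (SE 0.52, 95% interval -0.55 to 1.88, edgeR adjusted p = 0.698). An opposite-strand long noncoding RNA without a row in the table shares 575 exon bases with it.

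**Figure D2:**
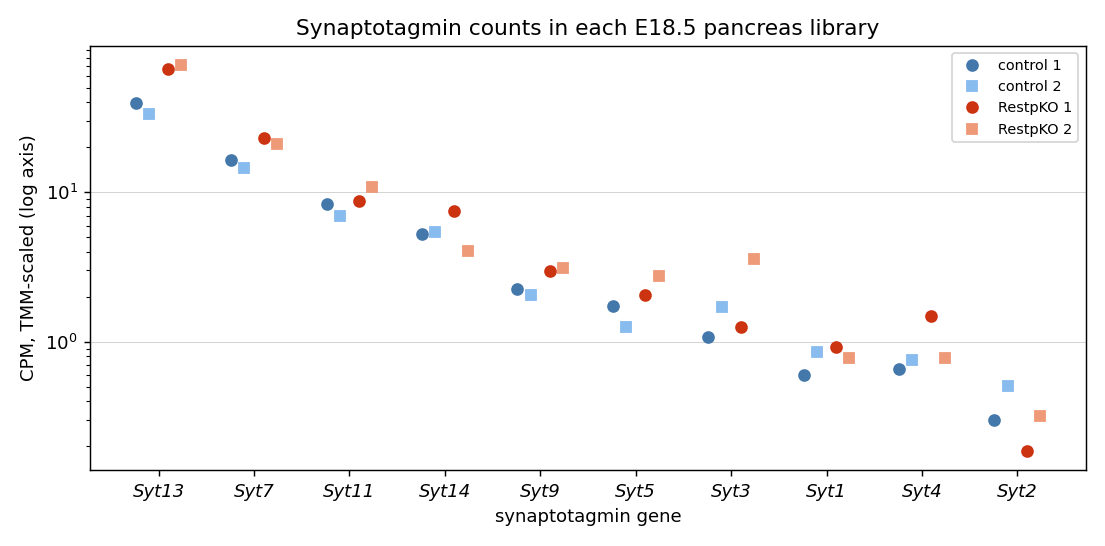
CPM of each synaptotagmin gene (log axis) in the 4 libraries, with controls in blue, RestpKO in red, circles for replicate 1 and squares for replicate 2. Both RestpKO libraries lie above both controls for *Syt4*, *Syt5*, *Syt7*, *Syt9*, *Syt11* and *Syt13*.

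Across the 9 members tested, none was called by edgeR at an adjusted p of 0.05, and across all genes tested 0% were called higher in RestpKO and 0.0275% lower. At an unadjusted p below 0.05, 2 members were higher in RestpKO (*Syt7* and *Syt13*) and none lower, beside 3.26% and 5.61% of all genes. DESeq2 called 1 member higher (*Syt13*) and none lower, beside 0.182% and 0.533% of genes. With sex as a term, edgeR also called 1 higher (*Syt13*) and none lower, beside 0.412% and 1.29%. No member was called by limma-voom, which called 0% of genes higher and 0.0206% lower. In no fit of all 4 libraries was a member called lower in RestpKO.

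All 9 log2 fold changes were above 0, from 0.10 to 0.91 with a median of 0.51. Over all genes tested 49.5% were above 0 and the median was -0.0048. In 6 of the 9 members both RestpKO libraries exceeded both controls, which held for 21.5% of all genes, and in none did both fall below, which held for 21.2%. These counts describe the members that passed the filter and do not include *Syt2*.

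**Figure D3:**
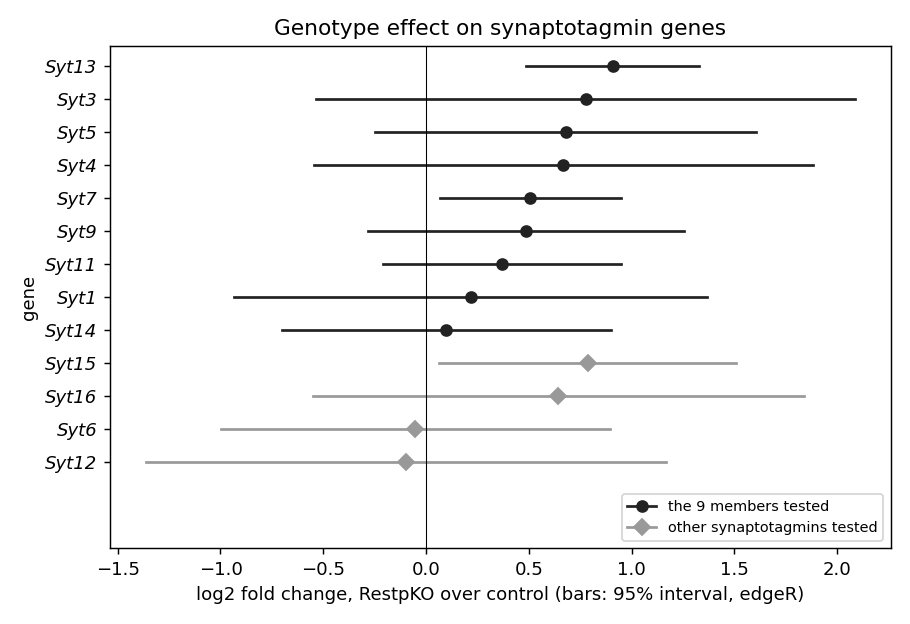
log2 fold change of RestpKO over control with its 95% interval (edgeR, bars) for the 9 members tested, in black, and for the 4 other synaptotagmins tested, in grey. Among the members the intervals of *Syt13* and *Syt7* lie above 0, and the other 7 intervals include 0.

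Within each sex there was 1 library per genotype, which gives a ratio without a test. *Syt13* was higher in RestpKO in both sexes, with log2 ratios of 0.84 in females and 0.98 in males (after adding 0.1 CPM). *Syt5* and *Syt9* also had like values in the 2 sexes (0.63 and 0.65 for *Syt5*, 0.44 and 0.50 for *Syt9*). In all, 7 of the 9 members tested were higher in both pairs, beside 27.1% of all genes. *Syt3* and *Syt14* pointed in opposite directions in females and males.

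**Figure D4:**
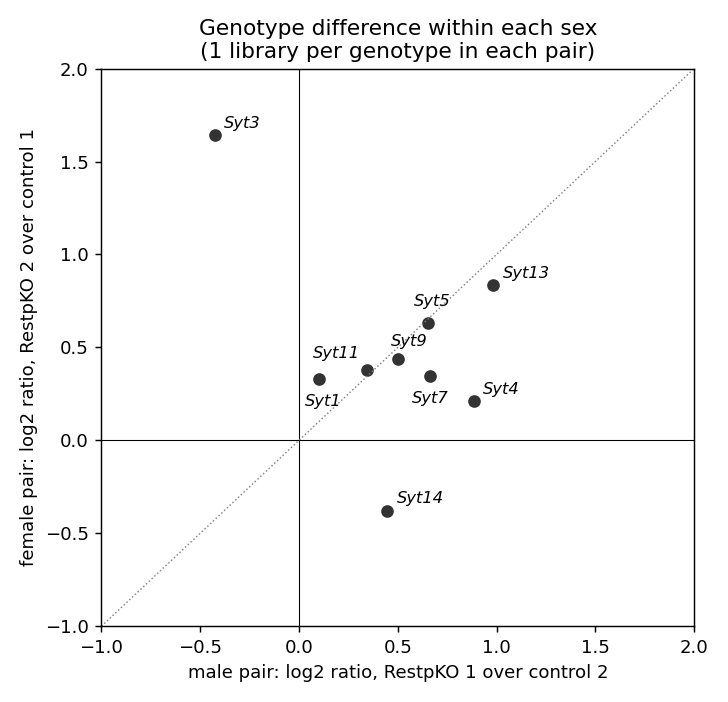
log2 ratio of RestpKO over control for each of the 9 members tested, in the male pair (x axis) and the female pair (y axis), with 1 library per genotype in each pair and a dotted line of equality. The 7 points at upper right are above 0 in both sexes, and *Syt3* and *Syt14* lie off this group.

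The likeness of patterns was measured as the root mean square difference of log2 CPM over the 4 libraries, each gene centred on its mean, among 11048 genes with at least 5 CPM. Closest to *Syt13* were *Zfp61*, *Bcat1* and *Pim2*, with differences of 0.0147, 0.0588 and 0.0630, and 12 genes lay within 0.1. For *Syt7* the closest was *Mlxipl*, a glucose-responsive transcription factor, at 0.0188, with 100 genes within 0.1. No gene came within 0.1 of *Syt3*. Its closest were *Rpl37*, *Rps19* and *Il34*, at 0.145, 0.179 and 0.187, and each was highest in RestpKO 2, as was *Syt3*. *Rpl37* and *Rps19* encode ribosomal proteins, with 45.5 and 200 CPM in RestpKO 2 against 15.4 and 87.2 CPM in RestpKO 1. These genes were picked for their closeness over 4 libraries and are given as a description.

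The table held 7 further synaptotagmins, of which 4 were tested. *Syt15*, which does not bind calcium, had 4.64 and 6.35 CPM in controls, 11.5 and 7.47 CPM in RestpKO, and a log2 fold change of 0.79 (SE 0.31, edgeR adjusted p = 0.534). *Syt16*, a relative of *Syt14*, had a log2 fold change of 0.64 and did not overlap between genotypes (edgeR adjusted p = 0.704). *Syt6* and *Syt12* were near 0 on the log2 scale, at -0.05 and -0.10 (edgeR adjusted p = 0.968 and 0.954). *Syt8* and *Syt17* were below the filter and *Syt10* had no count.

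Other C2-domain proteins and partners in exocytosis were compared by the same fit. EdgeR called none of them in either direction, beside 0% of all genes called higher and 0.0275% lower. Of 7 synaptotagmin-like and extended synaptotagmin genes tested, 3 were above 0 and 4 below, with a median log2 fold change of -0.06. *Sytl4*, which encodes granuphilin, a protein that docks insulin granules, had a log2 fold change of 0.55 and separate genotypes (edgeR adjusted p = 0.504). *Esyt2*, a tether between endoplasmic reticulum and plasma membrane, was lower in both RestpKO libraries at -0.46 (edgeR adjusted p = 0.504). The 3 tested genes of the Doc2 and rabphilin group were above 0 with a median of 0.25. All 3 overlapped between genotypes, where only 21.5% of all genes were separate upward and 21.2% downward.

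The SNARE proteins on which synaptotagmins act were evenly divided, with 5 of 10 tested genes above 0 and a median log2 fold change of 0.02. *Stx1a*, a plasma membrane syntaxin, was higher in both RestpKO libraries (0.43, edgeR adjusted p = 0.629), and *Snap23*, a broadly expressed SNARE, was lower in both (-0.50, edgeR adjusted p = 0.540). *Snap25*, the neuronal and endocrine counterpart of *Snap23*, had 4.76 and 3.33 CPM in controls, and 10.4 and 4.10 CPM in RestpKO. RestpKO 1 stood alone at the top and the genotypes overlapped (log2 fold change 0.85, edgeR adjusted p = 0.637).

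Of 20 regulators of SNARE assembly tested, 16 were above 0, with a median log2 fold change of 0.27, and the RestpKO libraries exceeded the controls in 11 and fell below them in 1, beside 21.5% and 21.2% of all genes. That 1 was *Unc13d*, a priming factor of granule release in blood cells, at 1.85 and 3.78 CPM in controls and 0.974 and 1.18 CPM in RestpKO (log2 fold change -1.38, SE 0.47, edgeR adjusted p = 0.495). *Cplx2*, a complexin that clamps and promotes fusion, had mean levels of 28.2 ± 2.26 CPM in controls and 51.8 ± 6.11 in RestpKO (SD, n = 2). Its log2 fold change was 0.88 (SE 0.19), and it rose by DESeq2 (adjusted p = 0.0469) but not by edgeR (adjusted p = 0.357). Of 9 synaptic vesicle genes tested, 6 were above 0, with a median of 0.11. *Syp*, which encodes synaptophysin, had a log2 fold change of 0.92 (edgeR adjusted p = 0.424), whereas *Slc18a2*, a vesicular monoamine transporter, had -1.31 (edgeR adjusted p = 0.460).

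Synaptotagmins are made by several cell types that whole pancreas contains, and the markers of these types were measured beside them. The 25 islet endocrine markers had a median log2 fold change of 0.66, with 24 above 0. Their summed level was 4092 and 2796 CPM in controls and 5896 and 7877 CPM in RestpKO. *Syt13*, *Syt3*, *Syt5* and *Syt4* had a log2 fold change above that median, by 0.25, 0.12, 0.02 and 0.01. The 5 other members tested lay below it. For *Syt3*, *Syt5* and *Syt4* the excess was smaller than the SE of the gene (0.56, 0.40 and 0.52). For *Syt13* it was larger than the SE (0.18), but the log2 fold change of 0.91 lay within the range of the islet list (-0.35 to 1.41). Islet markers such as *Ins1* (1.41) and *Chga* (1.30) lay above *Syt13*, and a difference between *Syt13* and the islet list was not tested.

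Of 16 markers of autonomic neurons, 9 were tested and all 9 were above 0, with a median log2 fold change of 0.58. Their summed level was 37.3 and 32.7 CPM in controls and 48.8 and 63.0 CPM in RestpKO. The defining markers *Dbh* and *Chat* were at or near 0, with no library above 0.0456 CPM. Schwann cell markers had a median of 0.58 over 7 tested, with sums of 73.1 and 76.8 CPM in controls and 90.7 and 94.6 CPM in RestpKO. That median includes *Cdh19* (log2 fold change 1.23), at 0.179 and 0.353 CPM in controls and 0.603 and 0.683 CPM in RestpKO. Its RestpKO levels carried *Cdh19* past the filter on low counts, so the median is not ranked against that of the synaptotagmins. The mesenchyme markers had a median of -0.43 over 8 tested, and their sums were 8675 and 7748 CPM in controls and 4592 and 7205 CPM in RestpKO. Of the other lists, acinar markers had a median of 0.22 with 15 of 16 tested above 0, endothelial markers 0.31 with 6 of 6, and duct markers -0.01 with 3 of 7. Mesothelial markers had a median of -0.86 with 0 of 5 above 0, macrophage and leukocyte markers -0.17 with 3 of 13, and erythroid markers -2.88 with 0 of 3. The part of these markers in the synaptotagmin values was not tested.

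**Figure D5:**
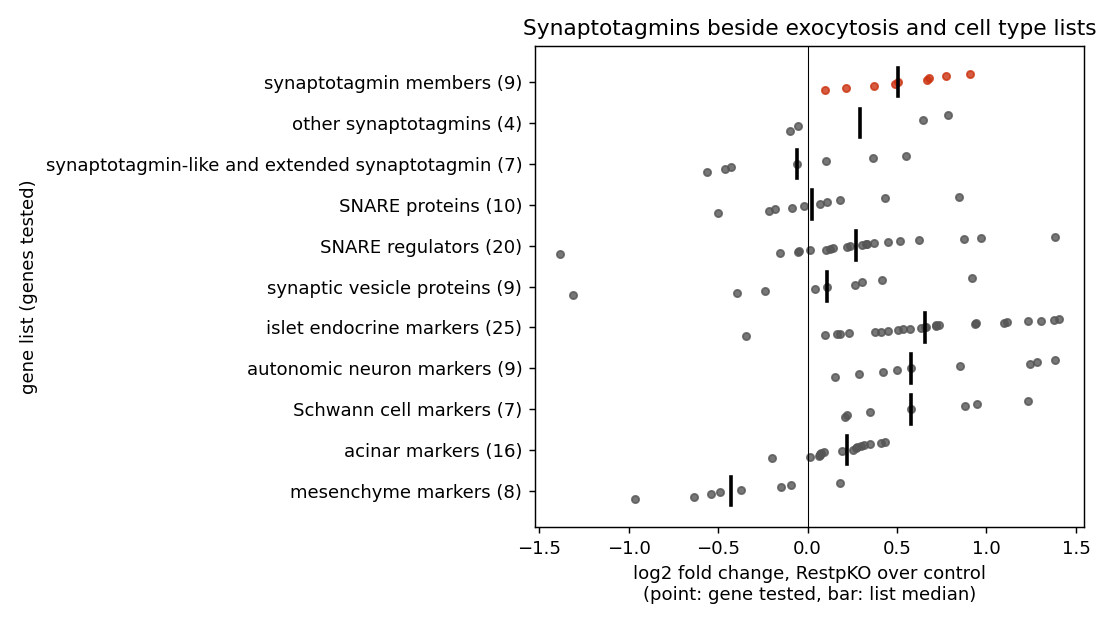
log2 fold change of RestpKO over control for the tested genes of each list (1 point per gene, with a vertical bar at the list median and the number tested in brackets). The synaptotagmin median of 0.51 lies above that of the SNARE proteins (0.02). It lies below those of the islet (0.66) and autonomic neuron (0.58) markers. The Schwann cell median (0.58) is not ranked beside it, because *Cdh19* in that list passed the filter on low counts through its RestpKO levels.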

How the data were processed

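The deposited values were whole-number counts per gene, which the authors had made by aligning paired-end reads with STAR to a genome named NCBI36/mm9 and assigning unique reads to UCSC genes with featureCounts (1.5 in the submitters' processing notes). The authors then used DESeq2. Whether counting used strand is not given in the sources used here. Genotypes and replicate numbers came from the sample labels.

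Counts were tested with edgeR 4.0.16 in R 4.3.3 (filterByExpr by genotype, TMM, glmQLFit, glmQLFTest), in a model of genotype alone, and p-values were adjusted by Benjamini-Hochberg over all 14550 genes tested, with a threshold of 0.05. CPM were scaled by TMM factors, from 0.910 to 1.06. The SE is the log2 fold change divided by the square root of F. With 2 libraries per genotype, SDs rest on 2 values and the main fit on 2 residual degrees of freedom. Fits with a further term had fewer. The methods speak of 3 pancreases for each genotype, and how the 2 libraries relate to them is not given in the sources used here. P-values set the difference between genotypes against the spread between these libraries. In the main edgeR fit the spread of each gene was drawn toward that of all genes (5.48 prior degrees of freedom). This value does not hold for the alternative fits. Alternatives were DESeq2 1.42.0, limma-voom (limma 3.58.1), other filters and scalings, a sex term, the replicate number as a block, and the removal of 1 library at a time. The procedure was also tested on simulated data.

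Gene positions, exon lengths and RE1-like matches came from the mm9 sequence with a GENCODE annotation matched by symbol, which placed 20627 genes. Lists came from textbook knowledge. The members, lists and tests were chosen with earlier results of these data known. The rule for named genes took all members, all tested other synaptotagmins, up to 4 genes with the smallest p of each further list, and up to 3 genes most alike each member in pattern. *Dbh* and *Chat* were named after their values were seen.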

Additional observations from a re-analysis of the deposited data

Results flagged for a closer look

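The genotype difference of 2 members had opposite directions in the female and the male pair. For *Syt3* the log2 ratio of RestpKO over control was 1.64 in females and -0.42 in males. For *Syt14* it was -0.38 in females and 0.45 in males. Each pair holds 1 library per genotype, the sexes were read from the counts and not from the labels, and the difference between the sexes was not tested.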

How the results depend on the processing

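The 9 members tested gave 106 values over 12 alternatives, of which 100 kept their direction and their side of the threshold, 3 passed it where the main result had not, and 3 turned. Those that turned, with the range of the log2 fold change when 1 library at a time was left out, were *Syt1* without control replicate 1 (-0.015 to 0.51), *Syt3* without RestpKO replicate 2 (-0.16 to 1.34) and *Syt14* without RestpKO replicate 1 (-0.40 to 0.48). The 3 that passed were all *Syt13*, at adjusted p-values of 0.0223 (DESeq2), 0.0445 (edgeR with sex as a term) and 0.0416 (edgeR without RestpKO replicate 1). Without control replicate 1, control replicate 2 or RestpKO replicate 2, the edgeR adjusted p of *Syt13* was 0.245, 0.823 and 0.222. The number of genes called was 4 in the main fit, 102 with DESeq2 and 247 with the sex term, and the number of members called was 0, 1 and 1. Leaving out 1 library at a time gave 1 to 514 genes called, 0 to 1 members called and a median of 0.46 to 0.55, where the lone library of a genotype is assumed to vary like the other pair. The causes were not tested. Under a filter of 1 CPM in 2 libraries *Syt1* and *Syt4* had no value.

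Libraries with the same replicate number share only a number (correlation of their deviations 0.0753). With the replicate number as a block, 4 genes and 0 members were called, and *Syt13* had an adjusted p of 0.138 (edgeR). With 4 libraries, and counts of 32 or fewer in *Syt1*, *Syt2* and *Syt4*, differences of the low members were not resolved.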
